A study of Mus musculus with 12 samples.

Results

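The inflammatory and regulatory cytokines described here are the interleukin-1 family genes Il1a, Il1b, Il1rn and Il18, together with Il6, Tnf, Il10, Il12b, Osm and Tgfb1. These 10 genes were taken by name and not by a cut on their measured values. Earlier results of these data were known when they were chosen. All 10 were among the 37775 gene symbols of the count table, and all 10 passed the filter on low counts, which left 22118 genes for testing. The study followed monocyte and macrophage lineage cells (Mo-Macs) in the skin lesion of IgE-mediated chronic allergic inflammation (IgE-CAI). WT BALB/c mice received 300 μg of anti-TNP IgE intravenously and then 10 μg of TNP-conjugated ovalbumin intradermally in the ear, and the lesion was taken on day 5. Mo-Macs, gated as CD45+CD11b+SiglecF-Ly6G- cells, were sorted by Ly6C and PD-L2 into 4 fractions with 3 poly(A) RNA-seq libraries each.

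The Ly6ChiPD-L2lo fraction was named classical monocytes (Classical mono), Ly6ChiPD-L2hi early classical monocyte-derived macrophages (early CMDMs), Ly6CloPD-L2hi late CMDMs, and Ly6CloPD-L2lo resident-like macrophages. All 12 libraries shared the genotype, strain, sensitisation, challenge and day, so the fraction is the only labelled difference and none is an unchallenged control. The labels do not say whether the 3 libraries of a fraction came from separate mice, so the p-values measure only the spread between these libraries. Library totals ranged from 12537178 to 19844113 counts, and 3 counts corresponded to 0.151 to 0.239 counts-per-million (CPM).

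The fractions differed in what else they held. The summed level of 10 keratinocyte markers was 21719 to 34418 CPM in early CMDMs and 2357 to 5123 CPM in the other 9 libraries, with all 10 markers over 3 counts in every fraction. The summed level of 10 Mo-Mac markers was lowest in early CMDMs, at 3103 to 4526 CPM, against 7442 to 11931 CPM elsewhere. The summed level of 6 fibroblast markers was 2983 to 5579 CPM in the Ly6Chi fractions and 275 to 498 CPM in the Ly6Clo fractions. The neutrophil sum was 76.1 to 139 CPM with the defining marker Ly6g at 0 in every fraction but Classical mono. The sum of 5 endothelial markers was 136 to 148 CPM in early and 133 to 147 CPM in late CMDMs. It was 73.6 to 78.4 CPM in Classical mono and 49.1 to 75.5 CPM in resident-like macrophages. The sum of 10 dendritic and Langerhans cell markers was 1529 to 1783 CPM in resident-like macrophages and 265 to 434 CPM elsewhere, with all 10 markers over 3 counts in each fraction. Most of the resident-like sum was Cd207 (mean 818 CPM), Cd209a (554 CPM) and Epcam (218 CPM). Of the 10 markers, 3 were higher and 3 lower in resident-like macrophages than in Classical mono (10.8% and 12.9% of all tested genes). Against late CMDMs 6 were higher and 1 lower (12.7% and 15.5%). The sum of 10 basophil and mast cell markers was 104 to 212 CPM in resident-like macrophages and 16.1 to 99.1 CPM in the other libraries. In resident-like macrophages 9 of 10 markers were over 3 counts, where any library of the fraction sufficed, and Prss34 was at 0. Mcpt8 had 0, 0 and 18 counts there. Most of the sum was Cma1 (mean 46.6 CPM), Mcpt4 (36.4 CPM), Tpsb2 (31.4 CPM) and Cpa3 (19.1 CPM). The sum of 10 T and NK cell markers was 562 to 859 CPM in Classical mono and 75.3 to 211 CPM elsewhere, with all 10 over 3 counts in each fraction. In bulk libraries, fewer cells of a type and less RNA per cell cannot be told apart.

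Interleukin-1 alpha and interleukin-1 beta signal through the same receptor, and the receptor antagonist encoded by Il1rn occupies that receptor without signalling. Pro-interleukin-1 beta and pro-interleukin-18 are made as precursors that caspase-1 cuts within the inflammasome, so their mRNA levels do not measure released cytokine. TNF, interleukin-6, oncostatin M and interleukin-12 (Il12b encodes its p40 subunit) are products of activated myeloid cells, whereas interleukin-10 and transforming growth factor beta 1 are known to restrain inflammation. In skin, keratinocytes can also make interleukin-1 alpha, interleukin-1 receptor antagonist and interleukin-18, and fibroblasts can make interleukin-6.

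The promoters of Il1b, Tnf and Il6 are shown because these genes took the 3 main patterns of level described next. Each run holds 250 bases before and 50 after the RefSeq start on GRCm38.p6, written 5′ to 3′ on the gene's strand. Capitals mark TATAAA or the NF-kB-type letters GGG and TTTCC with any pair of bases (NN) between them, searched on both strands.
Il1b, chr2:129371090-129371389, minus strand: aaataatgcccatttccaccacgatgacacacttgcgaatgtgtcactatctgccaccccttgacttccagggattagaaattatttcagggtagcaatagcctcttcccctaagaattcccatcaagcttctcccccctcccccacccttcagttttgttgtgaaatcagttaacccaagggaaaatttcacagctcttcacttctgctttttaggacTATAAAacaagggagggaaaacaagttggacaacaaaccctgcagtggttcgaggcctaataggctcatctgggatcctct
Tnf, chr17:35201958-35202257, minus strand: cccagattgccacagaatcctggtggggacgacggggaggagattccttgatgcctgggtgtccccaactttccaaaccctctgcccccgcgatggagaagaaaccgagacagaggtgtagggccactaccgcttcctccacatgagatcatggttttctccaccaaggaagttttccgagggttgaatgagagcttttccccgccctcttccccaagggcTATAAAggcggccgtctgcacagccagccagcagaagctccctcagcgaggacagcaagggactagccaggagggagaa
Il6, chr5:30012864-30013163, plus strand: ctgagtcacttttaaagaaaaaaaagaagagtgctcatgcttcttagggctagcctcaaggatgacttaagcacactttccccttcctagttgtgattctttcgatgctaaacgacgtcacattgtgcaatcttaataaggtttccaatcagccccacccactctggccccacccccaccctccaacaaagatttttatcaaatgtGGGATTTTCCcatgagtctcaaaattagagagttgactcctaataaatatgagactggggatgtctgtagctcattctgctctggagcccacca
TATAAA lay at positions -31 to -26 from the start in Il1b and -29 to -24 in Tnf, and it was not in the Il6 window. The NF-kB-type letters lay at -44 to -35 in Il6 and was in neither of the other two windows. Of 32851 promoters of this length, 13.6% held TATAAA and 1.63% held the NF-kB-type letters. The promoter table held 10 entries for 8 of the 10 cytokines. The NF-kB-type letters were in 3 of these 10 entries, which were the Il6 entry and a pair of overlapping Il1rn entries. A match of letters is a description of the window and not a binding site.

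Compared per kilobase of merged exon, Il1b was the most abundant cytokine mRNA in every fraction, from 99.8 ± 22.2 CPM per kb (SD, n = 3) in early CMDMs to 604 ± 65.1 in Classical mono. Il12b was the least abundant, from 0.530 to 1.73 CPM per kb. Tgfb1 ranked 2 in Classical mono and early CMDMs, where Tnf ranked 4 and 5. In late CMDMs and resident-like macrophages Tnf ranked 2 and Tgfb1 ranked 3. These ranks rest on the merged exon length, 5042 bases for Tgfb1 and 1639 for Tnf. Without division by length, Tgfb1 stood above Tnf in both fractions. The mean levels were 282 against 104 CPM in late CMDMs and 433 against 170 CPM in resident-like macrophages. All other levels below are TMM-scaled CPM, and fold changes are log2 values with SE from the edgeR quasi-likelihood test, with p-values adjusted by Benjamini-Hochberg over all 22118 genes.

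**Figure D1:**
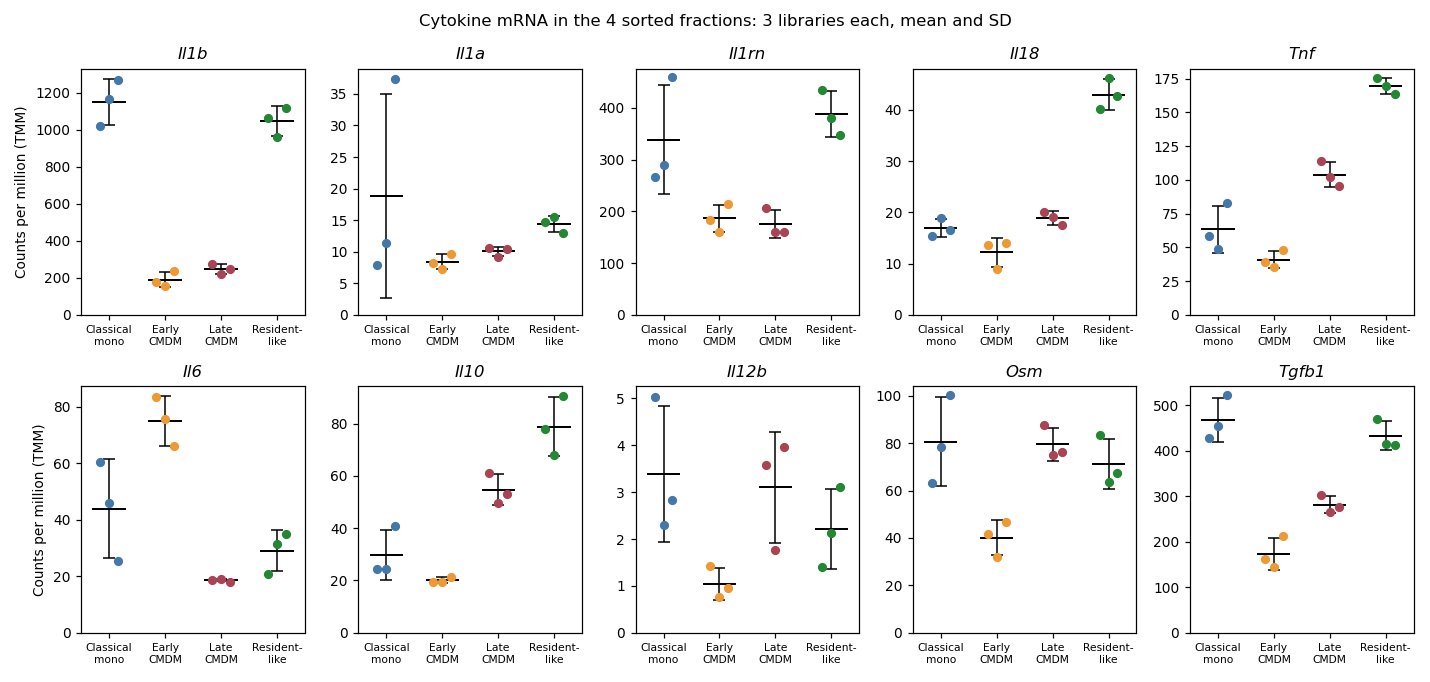
Levels of the 10 cytokine mRNAs (y axis, TMM-scaled CPM from 0) in the 4 sorted fractions (x axis). Each point is 1 library, and the bar and whiskers are the mean and SD of 3 libraries. Il1b is at 962 CPM or more in Classical mono and resident-like macrophages and below 280 CPM in both CMDM fractions, Tnf and Il10 are highest in resident-like macrophages, and Il6 is highest in early CMDMs.

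Between Classical mono and early CMDMs, 8 of the 10 cytokines were lower and 1 was higher in early CMDMs, against 20.6% of all tested genes lower and 24.2% higher. The members' median log2 fold change was -0.94 and that of all genes was -0.01. From early to late CMDMs, 6 were higher and 1 was lower, against 14.4% and 17.5% of all genes. From late CMDMs to resident-like macrophages, 6 were higher and 0 lower, against 12.7% and 15.5%. Late CMDMs compared with Classical mono had 2 higher and 4 lower (18.1% and 17.5% of all genes). Resident-like macrophages had 3 higher and 0 lower than Classical mono (10.8% and 12.9%), and 7 higher and 1 lower than early CMDMs (21.4% and 25.1%). For the counts of 0 lower by edgeR, DESeq2 also called 0, and an unadjusted p under 0.05 was reached by 0 members against late CMDMs and by 1, Il6, against Classical mono. These comparisons share libraries and are not independent of each other.

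**Figure D2:**
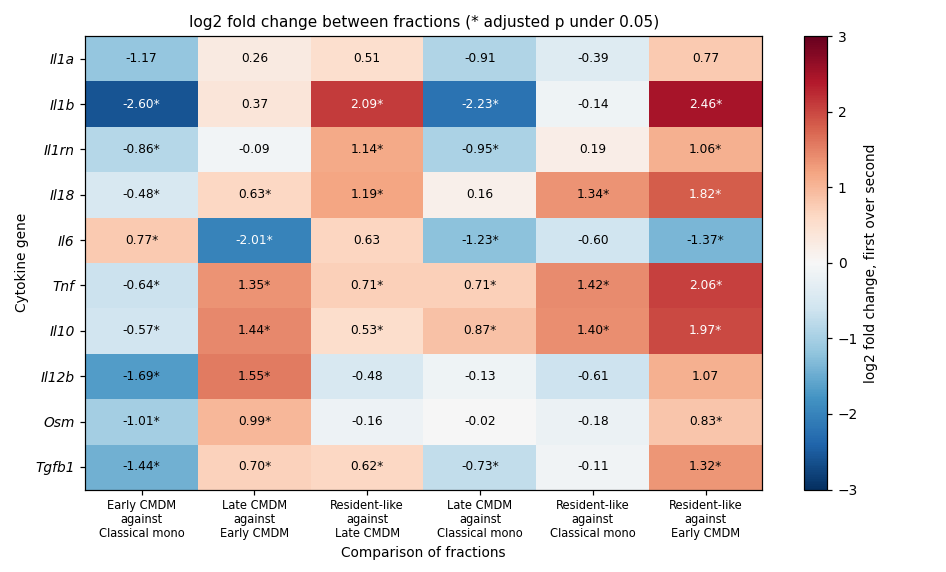
log2 fold change of each cytokine gene (rows) in the 6 comparisons of fractions (columns), first fraction over second, on the TMM scale. Colour and number give the value, and an asterisk marks an adjusted p under 0.05. Early CMDMs were lower than Classical mono for 8 genes and higher for Il6. On leukocyte gene scaling only Il1b stays negative in that column.

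These directions are relative to the other genes on the TMM scale, and another scaling shifts all genes together. When the libraries were scaled on 10 genes that leukocytes share (Ptprc, Coro1a, Laptm5 and 7 others, 1186 to 1858 CPM in early CMDMs and 5002 to 5381 CPM in Classical mono), the median of all genes moved to 1.86 for early CMDMs over Classical mono. It moved to -0.86 for late over early CMDMs, -0.81 for resident-like over late CMDMs, 0.98 for late CMDMs over Classical mono, 0.18 for resident-like over Classical mono and -1.67 for resident-like over early CMDMs. Of the 39 member differences called with TMM, 17 (43.6%) changed sign under this scaling and 7 more (17.9%) kept their sign without passing the test. Over all tested genes, 29.6% of the 46612 differences called with TMM changed sign and 9.47% lost the call. For early CMDMs over Classical mono the sign changed in 7 of the 9 called members and in 38.4% of all called genes. On this scaling members called higher and lower were 7 and 1 in early CMDMs against Classical mono, where 92.4% of all genes were higher and 1.89% lower. They were 2 and 3 in late against early CMDMs (0.895% and 68.4% of all genes) and 1 and 2 in resident-like macrophages against late CMDMs (2.24% and 68.2%). Against Classical mono they were 5 and 1 in late CMDMs (74.6% and 4.3%) and 3 and 0 in resident-like macrophages (11.6% and 7.26%), and 2 and 4 in resident-like macrophages against early CMDMs (1.24% and 91%). Il1b remained lower in early CMDMs than in Classical mono (-0.76), and Il6 remained higher (2.66). Tnf and Il10 remained higher in late than in early CMDMs (0.49 and 0.56) and higher in resident-like macrophages than in Classical mono (1.60 and 1.59).

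**Figure D3:**
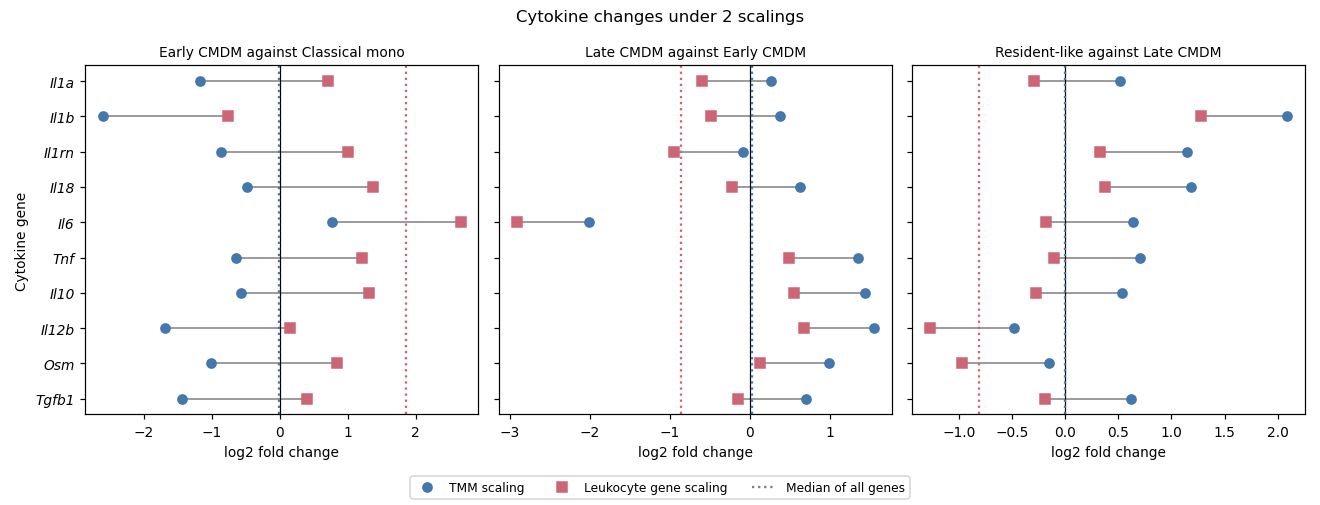
log2 fold change (x axis) of each cytokine (y axis) in the 3 successive comparisons with TMM scaling (blue circles) and with scaling on 10 leukocyte genes (red squares). Dotted lines mark the median of all genes in each scaling. In early CMDMs against Classical mono all members shift by nearly the same amount as the median, so that only Il1b stays below 0, and Il6 lies to the right of the median in both.

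Il1b encodes interleukin-1 beta (chromosome 2, 129364570 to 129371139, minus strand, GRCm38, as for all gene positions below). Its levels were 1020, 1166 and 1267 CPM in Classical mono and 1062, 962 and 1120 CPM in resident-like macrophages. Early CMDMs had 178, 156 and 237 CPM, and late CMDMs had 273, 220 and 245 CPM. The PD-L2lo fractions thus stood above the PD-L2hi fractions without overlap, whatever their Ly6C. Il1b was 6.05-fold lower in early CMDMs than in Classical mono (log2 -2.60, SE 0.15, adjusted p = 2.7e-09) and 4.26-fold higher in resident-like macrophages than in late CMDMs (log2 2.09, SE 0.15, adjusted p = 5.0e-08). Both differences kept their direction and call on leukocyte gene scaling, the second at 1.28. Resident-like macrophages over Classical mono did not pass the test (-0.14, SE 0.14, adjusted p = 0.57), and neither did late over early CMDMs (0.37, SE 0.14, adjusted p = 0.061). The last difference lay near the threshold. It passed with DESeq2 (0.38, adjusted p = 0.040), with no filter (0.36, adjusted p = 0.025) and without Classical mono replicate 3 (0.37, adjusted p = 0.047), resident-like replicate 2 (0.42, adjusted p = 0.041) or early CMDM replicate 3 (0.56, adjusted p = 0.0032). The dendritic and Langerhans cell sum and the basophil and mast cell sum were also highest in resident-like macrophages, and their part in the Il1b result was not tested.

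Il1a encodes interleukin-1 alpha, which needs no caspase-1 cleavage for activity (chromosome 2, 129299610 to 129309972, minus strand). Its levels were 7.87, 11.3 and 37.3 CPM in Classical mono, and the third library (670 counts against 128 and 206) stood far above the rest. Early CMDMs had 8.27, 7.26 and 9.67 CPM and late CMDMs 10.6, 9.23 and 10.4 CPM, while resident-like macrophages had 14.7, 15.5 and 12.9 CPM. Resident-like macrophages lay above both CMDM fractions without overlap. None of the 6 comparisons passed the edgeR test with all libraries (1 had an unadjusted p under 0.05, and DESeq2 called the same 1), and the difference closest to the threshold was between early CMDMs and Classical mono (log2 -1.17, SE 0.45, adjusted p = 0.052). The test of this gene turned on Classical mono replicate 3. Without it, Il1a was higher in resident-like macrophages than in Classical mono (0.58, adjusted p = 0.021), late CMDMs (0.51, adjusted p = 0.019) and early CMDMs (0.77, adjusted p = 0.00060). On leukocyte gene scaling with all libraries the last pair of differences was -0.30 and -0.90, both short of the test. The keratinocyte sum was 3424, 5123 and 2357 CPM in Classical mono replicates 1, 2 and 3, and its part in the Il1a values was not tested.

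Il1rn encodes the interleukin-1 receptor antagonist (chromosome 2, 24336853 to 24351494, plus strand). Its levels were 267, 289 and 460 CPM in Classical mono and 435, 380 and 347 CPM in resident-like macrophages, which overlapped. Early CMDMs had 184, 161 and 214 CPM and late CMDMs 207, 160 and 160 CPM, all below the PD-L2lo fractions. Il1rn was 1.82-fold lower in early CMDMs than in Classical mono (log2 -0.86, SE 0.19, adjusted p = 0.0014), which turned to 1.00 higher on leukocyte gene scaling. It was 2.21-fold higher in resident-like macrophages than in late CMDMs (log2 1.14, SE 0.19, adjusted p = 0.00032), a difference of 0.33 that did not pass the test on that scaling. Late over early CMDMs did not pass the test (-0.09, SE 0.18, adjusted p = 0.77). The Classical mono library with the highest Il1rn was again replicate 3, and without it resident-like macrophages were higher than Classical mono (0.48, adjusted p = 0.021).

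Il18 encodes interleukin-18 (chromosome 9, 50554827 to 50581840, plus strand). Its levels were 40.2, 46.2 and 42.7 CPM in resident-like macrophages. They were 20.04, 19.2 and 17.4 CPM in late CMDMs, 15.4, 18.8 and 16.5 CPM in Classical mono and 13.6, 8.96 and 14.0 CPM in early CMDMs. All resident-like libraries stood above the other 9, and late CMDMs overlapped with Classical mono. Il18 was 2.28-fold higher in resident-like macrophages than in late CMDMs (log2 1.19, SE 0.14, adjusted p = 1.4e-05) and 2.54-fold higher than in Classical mono (log2 1.34, SE 0.14, adjusted p = 3.1e-06). The second difference was 1.52 and called on leukocyte gene scaling, whereas the first was 0.37 and was not. The fall from Classical mono to early CMDMs (-0.48, SE 0.15, adjusted p = 0.016) was not called without early CMDM replicate 2 (-0.28, adjusted p = 0.10) or Classical mono replicate 2 (-0.39, adjusted p = 0.066), and it turned to 1.37 on leukocyte gene scaling. The dendritic and Langerhans cell sum was likewise highest in resident-like macrophages, at least 1529 CPM there and at most 434 CPM elsewhere. Of its 10 markers, 3 were higher and 3 lower there than in Classical mono (10.8% and 12.9% of all tested genes). The part of this list in the Il18 result was not tested.

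Tnf encodes tumor necrosis factor (chromosome 17, 35199381 to 35202007, minus strand). Its levels were 39.2, 35.4 and 47.7 CPM in early CMDMs and 58.6, 49.0 and 82.8 CPM in Classical mono. Late CMDMs had 114, 102 and 95.5 CPM, and resident-like macrophages had 176, 170 and 164 CPM. No pair of fractions overlapped, and all 6 comparisons passed the test. Tnf was 2.54-fold higher in late than in early CMDMs (log2 1.35, SE 0.16, adjusted p = 1.1e-05) and 2.67-fold higher in resident-like macrophages than in Classical mono (log2 1.42, SE 0.16, adjusted p = 6.0e-06). The smaller steps were -0.64 from Classical mono to early CMDMs (SE 0.16, adjusted p = 0.0039) and 0.71 from late CMDMs to resident-like macrophages (SE 0.16, adjusted p = 0.0029). On leukocyte gene scaling these became 1.22 and -0.11. The dendritic and Langerhans cell and the basophil and mast cell sums were likewise highest in resident-like macrophages, and their part in the Tnf and Il10 results was not tested.

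Il10 encodes interleukin-10, a cytokine known to limit macrophage activation (chromosome 1, 131019845 to 131024974, plus strand). Its levels were 19.5, 19.5 and 21.4 CPM in early CMDMs and 24.3, 24.3 and 40.9 CPM in Classical mono. Late CMDMs had 61.2, 49.7 and 53.0 CPM, and resident-like macrophages had 77.9, 68.0 and 90.7 CPM. The 4 fractions stood in the same order as for Tnf and again without overlap. Il10 was 2.71-fold higher in late than in early CMDMs (log2 1.44, SE 0.18, adjusted p = 1.9e-05) and 2.64-fold higher in resident-like macrophages than in Classical mono (log2 1.40, SE 0.17, adjusted p = 2.1e-05). The neighbouring steps at either end of the order were less firm. The difference between early CMDMs and Classical mono was -0.57 (SE 0.18, adjusted p = 0.017) and was not called without Classical mono replicate 3 (-0.27, adjusted p = 0.12), early CMDM replicate 1 (-0.53, adjusted p = 0.062) or early CMDM replicate 2 (-0.53, adjusted p = 0.062). The difference between resident-like macrophages and late CMDMs was 0.53 (SE 0.17, adjusted p = 0.030) and was not called without late CMDM replicate 2 (0.47, adjusted p = 0.11), late CMDM replicate 3 (0.51, adjusted p = 0.093), resident-like replicate 1 (0.54, adjusted p = 0.066) or resident-like replicate 3 (0.42, adjusted p = 0.13). On leukocyte gene scaling these became 1.31 and -0.28.

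Il6 encodes interleukin-6 (chromosome 5, 30013114 to 30019981, plus strand). Its levels were 83.5, 75.7 and 65.9 CPM in early CMDMs and 60.3, 46.0 and 25.5 CPM in Classical mono. They were 20.9, 31.3 and 34.8 CPM in resident-like macrophages and 18.8, 19.1 and 18.1 CPM in late CMDMs. Early CMDMs stood above the other 9 libraries, and late CMDMs below. Il6 was 4.02-fold lower in late than in early CMDMs (log2 -2.01, SE 0.26, adjusted p = 5.7e-05) and 2.59-fold lower in resident-like macrophages than in early CMDMs (log2 -1.37, SE 0.25, adjusted p = 0.00052). The difference between early CMDMs and Classical mono was 0.77 (SE 0.25, adjusted p = 0.020), and it was not called without early CMDM replicate 1 (0.70, adjusted p = 0.059) or early CMDM replicate 2 (0.78, adjusted p = 0.052). On leukocyte gene scaling it was 2.66, and late CMDMs were -2.91 relative to early CMDMs. Resident-like macrophages did not differ by the test from late CMDMs (0.63, SE 0.26, adjusted p = 0.089) or from Classical mono (-0.60, SE 0.25, adjusted p = 0.11). Both passed without Classical mono replicate 3, at 0.63 (adjusted p = 0.0095) and -0.87 (adjusted p = 0.0016).

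The fibroblast, T and NK cell and keratinocyte sums each moved with Il6 in part. The fibroblast sum was 5579, 4728 and 3249 CPM in Classical mono replicates 1, 2 and 3, the same order as Il6 in those libraries. It was 4198, 4179 and 2983 CPM in early CMDMs, again in the order of Il6. The T and NK cell sum had that order as well, at 859, 633 and 562 CPM in Classical mono and 211, 186 and 185 CPM in early CMDMs. In early CMDMs most of this sum was Thy1, at 176, 146 and 150 CPM, which is not the order of Il6. The mean fibroblast sum was 4519 CPM in Classical mono and 3787 CPM in early CMDMs. The mean T and NK cell sum was 685 and 194 CPM, so both were higher in Classical mono, where Il6 was lower. All 6 fibroblast markers were over 3 counts in every fraction and fell from early to late CMDMs, and none differed by the test between early CMDMs and Classical mono. The keratinocyte sum was 29769, 34418 and 21719 CPM in early CMDMs and 3424, 5123 and 2357 CPM in Classical mono, which is not the order of Il6 within either fraction. All 10 of its markers were higher in early CMDMs than in Classical mono. The part of these 3 lists in the Il6 result was not tested.

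**Figure D4:**
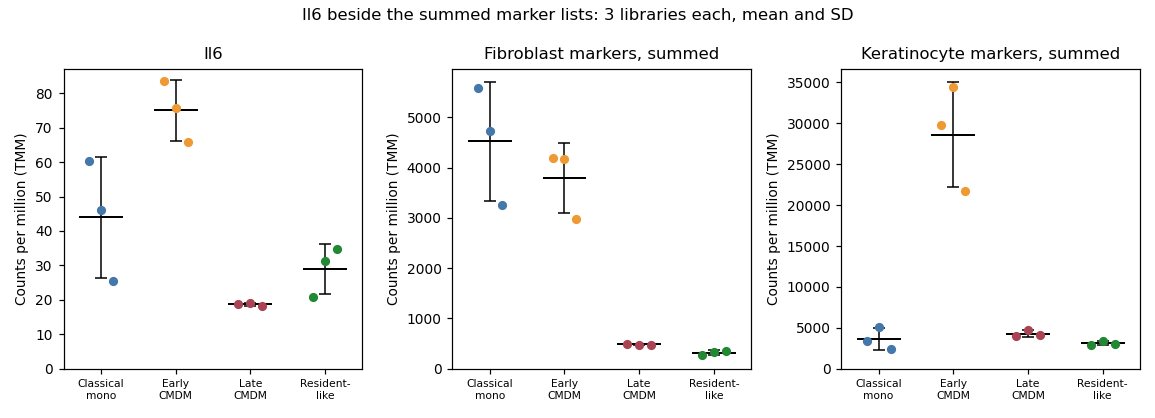
Il6 (left), the summed level of 6 fibroblast markers (middle) and the summed level of 10 keratinocyte markers (right) in TMM-scaled CPM (y axes from 0) by fraction (x axes). Points are libraries, and the bar and whiskers are the mean and SD of 3. Il6 and the fibroblast sum are both lower in late CMDMs and resident-like macrophages than in early CMDMs, while the keratinocyte sum stands apart in early CMDMs alone. The mean fibroblast sum is higher in Classical mono than in early CMDMs, the reverse of Il6.

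Osm encodes oncostatin M, an interleukin-6 family cytokine that acts on stromal and epithelial cells (chromosome 11, 4236420 to 4241026, plus strand). Its levels were 41.7, 31.9 and 46.6 CPM in early CMDMs, below the other 9 libraries, which lay between 63.1 and 100.5 CPM. Osm was 2.01-fold lower in early CMDMs than in Classical mono (log2 -1.01, SE 0.17, adjusted p = 0.00015) and 1.98-fold higher in late than in early CMDMs (log2 0.99, SE 0.17, adjusted p = 0.00033). On leukocyte gene scaling the values were 0.85 and 0.13. Classical mono, late CMDMs and resident-like macrophages overlapped, and neither neighbouring pair in their order passed the test (0.02, SE 0.17, adjusted p = 0.94, and 0.16, SE 0.17, adjusted p = 0.53).

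Tgfb1 encodes transforming growth factor beta 1, secreted in a latent form (chromosome 7, 25687002 to 25705077, plus strand). Its levels were 428, 454 and 522 CPM in Classical mono and 471, 416 and 413 CPM in resident-like macrophages, which overlapped. They were 302, 266 and 277 CPM in late CMDMs and 161, 144 and 214 CPM in early CMDMs. Tgfb1 was 2.71-fold lower in early CMDMs than in Classical mono (log2 -1.44, SE 0.13, adjusted p = 2.9e-07), which turned to 0.41 on leukocyte gene scaling. Late CMDMs were intermediate, 1.63-fold above early CMDMs (log2 0.70, SE 0.13, adjusted p = 0.00068) and 1.54-fold below resident-like macrophages (log2 0.62, SE 0.13, adjusted p = 0.0022). These became -0.15 and -0.19 on leukocyte gene scaling, so that the order of the 3 macrophage fractions was not kept.

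Il12b encodes the p40 subunit shared by interleukin-12 and interleukin-23 (chromosome 11, 44400063 to 44414033, plus strand). It was the sparsest member, with 12 to 82 counts a library. Its levels were 5.04, 2.31 and 2.84 CPM in Classical mono and 1.42, 0.758 and 0.948 CPM in early CMDMs. Late CMDMs had 3.58, 1.76 and 3.97 CPM, and resident-like macrophages had 1.40, 2.12 and 3.11 CPM. Early CMDMs lay below Classical mono and late CMDMs without overlap, and the other fractions overlapped. Il12b was 3.22-fold lower in early CMDMs than in Classical mono (log2 -1.69, SE 0.41, adjusted p = 0.0031) and 2.93-fold higher in late than in early CMDMs (log2 1.55, SE 0.42, adjusted p = 0.0094). The first became 0.15 on leukocyte gene scaling, and the second became 0.68 without passing the test. Without late CMDM replicate 3 the second was 1.32 (adjusted p = 0.050). Resident-like macrophages and early CMDMs were close to the threshold (1.07, SE 0.42, adjusted p = 0.050), which several alternatives crossed.

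Ratios of 2 cytokines within a library do not depend on how libraries are scaled, but they still depend on which cells the library holds. The size of each ratio also depends on the merged exon lengths, whereas its log2 difference between fractions does not. The 6 ratios computed here were chosen after the levels were seen, and with 3 libraries against 3 the smallest p of a two-sided exact permutation test is 0.1. The ratio of Il1rn to Il1b, the antagonist to the agonist mRNA per kilobase, was 0.0902, 0.0854 and 0.125 in Classical mono and 0.141, 0.136 and 0.107 in resident-like macrophages. It was 0.357, 0.356 and 0.310 in early CMDMs and 0.261, 0.251 and 0.224 in late CMDMs. Both CMDM fractions stood above both PD-L2lo fractions without overlap, and early stood above late CMDMs. The log2 difference was 1.79 (SE 0.19) between early CMDMs and Classical mono and -0.94 (SE 0.14) between resident-like macrophages and late CMDMs, each with p = 0.1 in the exact permutation test. The keratinocyte sum was highest in early CMDMs (21719 to 34418 CPM), and keratinocytes can make the products of Il1rn, Il1a and Il18. Its part in the ratios of these genes to Il1b was not tested.

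The ratio of Il10 to Tnf overlapped in all fractions. Its mean was 0.586 ± 0.058 in Classical mono and 0.624 ± 0.064 in early CMDMs. Late CMDMs had 0.659 ± 0.044 and resident-like macrophages 0.584 ± 0.099 (SD, n = 3). The largest log2 difference was -0.19 (SE 0.15), between resident-like macrophages and late CMDMs (exact permutation p = 0.3). The ratio of Il6 to Tnf was 1.44, 1.44 and 0.933 in early CMDMs and 0.695, 0.633 and 0.208 in Classical mono. Late CMDMs had 0.111 to 0.128 and resident-like macrophages 0.0803 to 0.144, so that it was lower in each Ly6Clo library than in any Ly6Chi library. The Il18 to Il1b ratio was 0.0241 to 0.0299 in Classical mono and 0.0699 to 0.0889 in resident-like macrophages, where Il1b itself did not differ by the test. It was higher in CMDMs, at 0.107 to 0.141 in early and 0.132 to 0.161 in late CMDMs. The Tgfb1 to Il1b ratio was 0.154 ± 0.0059 in Classical mono and 0.157 ± 0.015 in resident-like macrophages, and 0.345 ± 0.0054 in early and 0.434 ± 0.021 in late CMDMs. The Il1a to Il1b ratio was 0.0394 to 0.0451 in early and 0.0374 to 0.0411 in late CMDMs, above all 6 PD-L2lo libraries at 0.00745 to 0.0284.

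**Figure D5:**
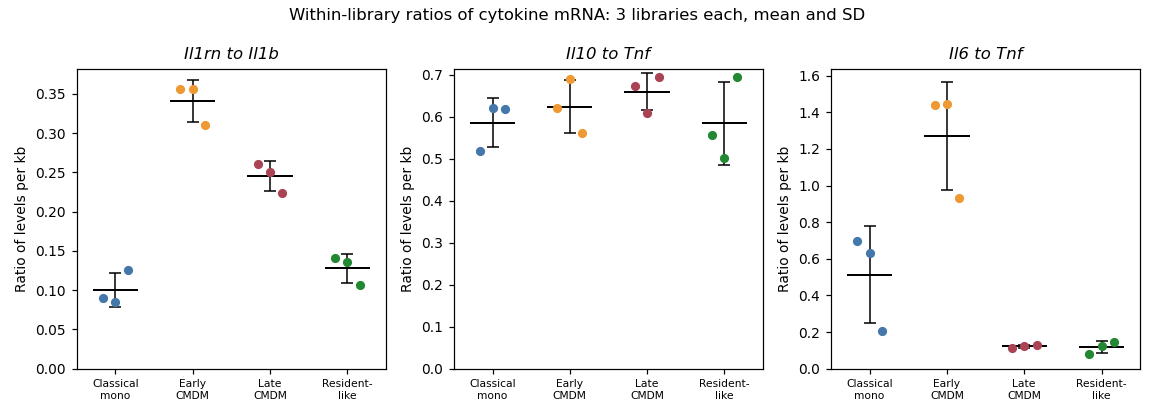
Ratios of levels per kilobase within each library (y axes from 0) for Il1rn to Il1b, Il10 to Tnf and Il6 to Tnf, by fraction (x axes). Points are libraries, and the bar and whiskers are the mean and SD of 3. The Il1rn to Il1b ratio is 0.224 or more in both CMDM fractions and 0.141 or less in the others, while the Il10 to Tnf ratio overlaps in all fractions.

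Across the 12 libraries, the genes whose log2 levels followed each cytokine most closely were named by Pearson's r. These 12 points come from 4 fractions and share their scaling and the composition differences above, so r is a description. Il1b was followed by Smim3 (0.997), Neurl3 (0.996) and Coro1a (0.993), the last a leukocyte gene used in the alternative scaling. Tnf was followed by B4galt6 (0.992), Tubb6 (0.989) and Arhgap18 (0.988). Il10 was followed by Furin (0.982), which encodes a proprotein convertase, by Tnf itself (0.981) and by B4galt6 (0.977). Tgfb1 was followed by Pirb (0.992), Il1rn by Nr4a2 (0.976), Il18 by Trim35 (0.983), Osm by Il10rb (0.975) and Il6 by Dio2 (0.963). The closest genes for Il12b and Il1a were Zfp944 (0.938) and Myo1c (0.925). Among the members, Il1b and Tgfb1 (0.935) and Il1b and Il1rn (0.910) were also close, and Il6 was negative with each of the other 9, down to -0.82 with Osm.

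Genes that release or receive interleukin-1 and interleukin-18 were read from lists of 11 and 9 genes, all of them tested. In the list of inflammasome and release genes, 8 of 11 were lower and 1 was higher in early CMDMs than in Classical mono, and 9 were higher and 1 lower in late than in early CMDMs. Of all tested genes, 20.6% were lower and 24.2% higher in the first comparison and 14.4% higher and 17.5% lower in the second. The list medians were -0.96 and 0.75. Nlrp3, the sensor of the inflammasome that activates caspase-1, was 107, 155 and 209 CPM in Classical mono, 55.0, 54.5 and 74.8 in early CMDMs. Late CMDMs had 105, 98.8 and 107 CPM, and resident-like macrophages had 242, 222 and 202 CPM. It fell by 1.35 (SE 0.19) into early CMDMs and was 0.75 (SE 0.19) higher in late CMDMs. Casp1, caspase-1 itself, moved by -1.08 (SE 0.13) and 1.08 (SE 0.13), and Aim2, a sensor of cytosolic DNA, by -1.39 (SE 0.15) and 1.23 (SE 0.15). Pycard, the adaptor that links the sensor to caspase-1, moved the other way in both steps, by 0.74 (SE 0.10) and -0.45 (SE 0.10). From late CMDMs to resident-like macrophages 2 of 11 were higher, Nlrp3 (1.10, SE 0.19) and Casp1 (0.36, SE 0.12), and 1 was lower, P2rx7 (-1.19, SE 0.25), the ATP-gated channel upstream of the inflammasome (all genes 12.7% higher and 15.5% lower). Scaled on leukocyte genes, all 11 were higher in early CMDMs than in Classical mono, as were 92.4% of all genes, with Nlrp3 at 0.50, Casp1 at 0.78 and Pycard at 2.63. For late over early CMDMs 1 was then higher and 3 lower, against 0.895% and 68.4% of all genes. For resident-like over late CMDMs Nlrp3 was 0.29 without passing the test and Casp1 was -0.45.

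Of the 9 receptors and binding proteins of interleukin-1 and interleukin-18, 5 were higher and 1 was lower in resident-like macrophages than in late CMDMs, against 12.7% and 15.5% of all genes. Il1r2, the decoy receptor that binds interleukin-1 without signalling, was 447, 615 and 647 CPM in resident-like macrophages and 40.9 to 42.5 CPM in late CMDMs (log2 3.77, SE 0.15). Its levels were 108, 113 and 110 CPM in Classical mono and 95.03, 96.0 and 71.4 CPM in early CMDMs, so resident-like macrophages held both high Il1b and the highest decoy receptor mRNA. With leukocyte gene scaling the difference from late CMDMs was 2.96 and still called. Il1rl1, the interleukin-33 receptor, was 34.1, 43.3 and 46.8 CPM in resident-like macrophages and 10.1 to 12.9 CPM in late CMDMs (1.87, SE 0.17). The part of the basophil and mast cell markers in the Il1rl1 result, and that of the dendritic and Langerhans cell markers in the Il1r2 result, was not tested.

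In early CMDMs compared with Classical mono, 2 of these 9 receptor genes were higher and 3 were lower (24.2% and 20.6% of all genes). The interleukin-18 receptor chains Il18rap and Il18r1 fell by 3.26 (SE 0.15) and 2.66 (SE 0.16), from 54.1 ± 8.5 to 5.62 ± 0.29 CPM and from 33.1 ± 3.8 to 5.23 ± 0.35 CPM (SD, n = 3). Scaling on leukocyte genes left these values at -1.40 and -0.78, both still called. The T and NK cell sum, from cells known to carry this receptor, was 562 to 859 CPM in Classical mono and 185 to 211 CPM in early CMDMs. Thy1, most of the early CMDM sum, averaged 198 CPM in Classical mono and 157 CPM in early CMDMs. Cd7 averaged 258 and 8.66 CPM. Of the 10 markers, 9 were lower in early CMDMs and 0 higher. The part of this list in the receptor result was not tested.

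Of 13 receptor genes for the other cytokines, 8 were lower and 2 higher in early CMDMs than in Classical mono, 5 were higher and 2 lower in late than in early CMDMs, and 4 were higher and 3 lower in resident-like macrophages than in late CMDMs. The shares of all genes were 20.6% lower and 24.2% higher, 14.4% and 17.5%, and 12.7% and 15.5%. Il10ra, the ligand-binding chain of the interleukin-10 receptor, fell by 1.49 (SE 0.18) into early CMDMs and then rose by 0.85 (SE 0.18) in late CMDMs and by 0.53 (SE 0.18) in resident-like macrophages. Tnfrsf1b, TNF receptor 2, moved by -1.86 (SE 0.17), 0.67 (SE 0.17) and 0.76 (SE 0.17). Osmr, the oncostatin M receptor, went the other way, with 1.54 (SE 0.24), -0.90 (SE 0.23) and -1.44 (SE 0.25). Scaled on leukocyte genes, 11 of the 13 were higher and 0 lower in early CMDMs than in Classical mono, against 92.4% and 1.89% of all genes. Il10ra was then at 0.35, Tnfrsf1b at -0.016 without passing the test and Osmr at 3.44. The rises of Il10ra and Tnfrsf1b into late CMDMs were then -0.0037 and -0.18, neither called. The highest levels of Osmr, 41.3, 40.9 and 32.0 CPM, were in the early CMDMs, where Osm itself was lowest and the keratinocyte sum highest.

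Of 13 genes that shed TNF or activate latent TGF-beta, 5 were higher and 2 lower in early CMDMs than in Classical mono, 5 were higher and 3 lower in late than in early CMDMs, and 2 were higher and 4 lower in resident-like macrophages than in late CMDMs. Of all genes 24.2% were higher and 20.6% lower in the first of these, 14.4% and 17.5% in the second, and 12.7% and 15.5% in the third. Adam17, the enzyme that sheds TNF, fell by 0.78 (SE 0.12) and then rose by 0.50 (SE 0.12), and its value for resident-like macrophages over late CMDMs was 0.17 (SE 0.12). Mmp9, a gelatinase able to act on latent TGF-beta, was 4.49 to 5.68 CPM in Classical mono, 8.59 to 9.99 in early CMDMs and 36.7 to 40.9 in late CMDMs. Resident-like macrophages had 47.9 ± 3.4 CPM (SD, n = 3). It was higher in each fraction than in the one before, by 0.91 (SE 0.13), 2.06 (SE 0.12) and 0.31 (SE 0.11). Furin, which cleaves the TGF-beta precursor, was 225 ± 9.5 CPM in late CMDMs and 117 ± 13.2 CPM in early CMDMs (SD, n = 3), a rise of 0.94 (SE 0.12), and rose by another 0.35 (SE 0.12) in resident-like macrophages. With leukocyte genes as the scale, Mmp9 was 2.78 in early CMDMs over Classical mono and 1.19 in late over early CMDMs, both called, but -0.50 in resident-like over late CMDMs, where Furin was -0.46. Adam17 turned to 1.09 and -0.38, and the rise of Furin into late CMDMs became 0.070 without passing the test.

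Of 14 feedback regulators of cytokine signalling, 6 were higher and 4 lower in early CMDMs than in Classical mono, and 1 was higher and 1 lower in late than in early CMDMs. In resident-like macrophages 8 were higher and 2 lower than in late CMDMs. Of all genes 24.2% were higher and 20.6% lower in the first comparison, 14.4% and 17.5% in the second, and 12.7% and 15.5% in the last. Atf3, a repressor of inflammatory genes, rose by 1.73 (SE 0.13) and Dusp1, a MAP kinase phosphatase, by 0.66 (SE 0.10) into early CMDMs, while Bcl3 and Tnip1, regulators of NF-kB signalling, fell by 1.33 (SE 0.12) and 1.28 (SE 0.11). In resident-like macrophages compared with late CMDMs, Tnip1 (0.82, SE 0.11), Bcl3 (0.79, SE 0.11), Nfkbia (0.45, SE 0.10) and Nfkbiz (0.43, SE 0.08) were higher and Atf3 was lower (-0.36, SE 0.13). Scaled on leukocyte genes, all 14 were higher in early CMDMs than in Classical mono, as were 92.4% of all genes. Bcl3 was then at 0.52 and Tnip1 at 0.61. In resident-like macrophages over late CMDMs, Tnip1 and Bcl3 were close to 0 (0.0045 and -0.018, neither called).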

How the data were processed

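The authors deposited 1 table of raw read counts per gene symbol for all 12 libraries, with none of its columns left unused. Per the methods and the submitters' processing notes, reads were trimmed with cutadapt 4.1 and mapped with Bowtie2 2.4.5 to Ensembl transcripts of GRCm38. The authors compared fractions with TCC, and edgeR 4.0.16 in R 4.3.3 was used here. Genes were filtered with filterByExpr, scaled by TMM and fitted over all 4 fractions with the quasi-likelihood test. Adjusted p-values are Benjamini-Hochberg over all tested genes, and a call is an adjusted p under 0.05. SDs are over 3 libraries. Levels per kilobase used merged exons of GENCODE M21 (GRCm38), which counts every annotated exon and so understates genes with many isoforms. Promoters are RefSeq's.

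The cytokines, pathway lists, marker lists and tests were chosen with earlier results of these data known. The genes named beside each cytokine were the 3 of highest Pearson's r over 12 libraries. No pair of libraries was a duplicate: chi-square per degree of freedom between replicates was 4.64 to 24.8. Alternatives were RLE size factors, DEGES (the iterative scaling of TCC, 3 rounds), library size alone, scaling on 10 leukocyte genes, no filter, at least 10 counts in every library, a fit of the compared libraries alone, DESeq2 1.42.0, leaving out 6 genes over 1% of counts, a stricter threshold of 0.01, a log2 fold change of at least 1, a replicate block and leaving out each library. The scripts were tested on simulated data. The limit of 3 counts served to describe low levels and to count markers over it, and it entered no test.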

Additional observations from a re-analysis of the deposited data

How the results depend on the processing

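With TMM, 39 of 60 member differences were called. In all settings other than leukocyte gene scaling, the 39 kept their direction and 34 kept their call. Scaling on leukocyte genes changed the most results, because it moves the median of all genes. It turned the values for early CMDMs over Classical mono to 0.71 (Il1a), 1.00 (Il1rn), 1.37 (Il18), 1.22 (Tnf), 1.31 (Il10), 0.15 (Il12b), 0.85 (Osm) and 0.41 (Tgfb1). It turned late over early CMDMs to -0.60 (Il1a), -0.48 (Il1b), -0.22 (Il18) and -0.15 (Tgfb1), and late CMDMs over Classical mono to 0.10 (Il1a), 0.047 (Il1rn), 0.83 (Il12b), 0.97 (Osm) and 0.26 (Tgfb1). Resident-like over late CMDMs became -0.30 (Il1a), -0.18 (Il6), -0.11 (Tnf), -0.28 (Il10) and -0.19 (Tgfb1). Resident-like over Classical mono became 0.046 (Il1b), 0.0066 (Osm) and 0.069 (Tgfb1), and over early CMDMs -0.90 (Il1a), -0.62 (Il1rn), -0.60 (Il12b), -0.84 (Osm) and -0.34 (Tgfb1). Members called higher and lower became 7 and 1 in early CMDMs against Classical mono (92.4% and 1.89% of all genes), 2 and 3 in late against early CMDMs (0.895% and 68.4%), 1 and 2 in resident-like against late CMDMs (2.24% and 68.2%), 5 and 1 in late CMDMs against Classical mono (74.6% and 4.3%), and 2 and 4 in resident-like against early CMDMs (1.24% and 91%).

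The fold threshold of 1 on the log2 scale left 0 higher and 4 lower members in early CMDMs against Classical mono, 3 higher in late against early CMDMs, 3 higher in resident-like against late CMDMs, and 0 higher and 2 lower in late CMDMs against Classical mono. The single higher member of early CMDMs against Classical mono, Il6, was lost (0 called) with no filter and at an adjusted p under 0.01. With library size alone 1 member, Il6, was lower in resident-like macrophages than in Classical mono, against 0. DEGES turned Osm in late CMDMs over Classical mono to 0.027, and under it the fall of Il18 into early CMDMs was not called (-0.38, adjusted p = 0.051). The causes were not tested.

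Leaving out 1 library at a time gave 0 to 1 members higher in early CMDMs than in Classical mono, with 0 without early CMDM replicate 1 or 2. It gave 3 to 5 higher and 0 to 1 lower in resident-like macrophages than in Classical mono, with 5 and 1 without Classical mono replicate 3. Ranges that crossed 0, none of them called with all libraries, were -0.22 to 0.023 for Il1rn in late over early CMDMs, and over Classical mono -1.27 to 0.067 for Il1a, -0.37 to 0.26 for Il12b and -0.16 to 0.17 for Osm in late CMDMs, and -0.75 to 0.58 for Il1a and -0.31 to 0.013 for Osm in resident-like macrophages.

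Libraries of different fractions share replicate numbers. Of 18 correlations between the deviations of same-numbered libraries, 16 were positive but only 4 were over 0.1 (range -0.10 to 0.25), and the labels name no shared mouse or batch, so the numbers were not taken to pair the libraries. The best match had the same number in 27 of 36 cases, against 12 if matches fell evenly on the 3 candidates, a hint from the data that same-numbered libraries share something. With the replicate block, 58 of 60 member differences kept their call or lack of one, and the other two became called: Il1b in late over early CMDMs (0.39, adjusted p = 0.021) and Il12b in resident-like macrophages over early CMDMs (1.09, adjusted p = 0.022).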

Other observations

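Of 20 further cytokines of the same families, 14 passed the filter on low counts. In early CMDMs compared with Classical mono, 5 were higher and 5 lower on the TMM scale (edgeR's quasi-likelihood test), against 24.2% and 20.6% of all tested genes, and 10 were higher and 2 lower on leukocyte gene scaling, against 92.4% and 1.89%. Il33, an alarmin of epithelial cells, was 52.7, 53.2 and 38.4 CPM in early CMDMs and 5.71 to 13.3 CPM in the other 9 libraries (log2 2.15, SE 0.18 over Classical mono). Il1f5, an older symbol of the interleukin-36 receptor antagonist Il36rn, was 22.7, 29.1 and 19.2 CPM in early CMDMs and on average 2.02 to 2.86 CPM elsewhere (3.32, SE 0.31). Both genes were highest in early CMDM replicate 2, the library with the highest keratinocyte sum, 34418 CPM. The part of the keratinocyte markers in these values was not tested.

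Ltb, lymphotoxin beta, was 31.4 ± 3.0 CPM in Classical mono and 2.64 ± 0.46 CPM in early CMDMs (SD, n = 3), a fall of 3.57 (SE 0.19). The T and NK cell sum was 562 to 859 CPM in Classical mono and 185 to 211 CPM in early CMDMs. Of its 10 markers, 9 were lower and 0 higher in early CMDMs (20.6% and 24.2% of all genes). The part of this list in the Ltb result was not tested. Il12a, the p35 partner of Il12b in interleukin-12, was 8.75 ± 2.0 CPM in Classical mono (SD, n = 3) and 0.121 to 0.618 CPM in the other 9 libraries, near the level of 3 counts. Il12b showed no such gap, since its late CMDM level overlapped with that of Classical mono. Il23a, the partner of Il12b in interleukin-23, averaged 18.7 CPM in early and 20.3 CPM in late CMDMs, and 8.77 CPM in Classical mono and 8.27 CPM in resident-like macrophages. Its rise into early CMDMs was 1.09 (SE 0.13) and its change between late CMDMs and the resident-like fraction was -1.29 (SE 0.13). Ebi3, which pairs with Il27 or Il12a subunits, was highest in resident-like macrophages at 39.6 CPM and was 1.28 (SE 0.16) above late CMDMs. The dendritic and Langerhans cell sum was also highest there, at 1529 to 1783 CPM. Of its 10 markers, 6 were higher and 1 lower there than in late CMDMs (12.7% and 15.5% of all genes). The part of this list in the Ebi3 result was not tested. From early to late CMDMs 1 of the 14 was higher and 5 were lower (14.4% and 17.5% of all genes), and in resident-like macrophages 4 were higher and 5 lower than in late CMDMs (12.7% and 15.5%). On leukocyte gene scaling these were 1 and 12 (0.895% and 68.4%), and 3 and 8 (2.24% and 68.2%). The single-gene fold changes above are on the TMM scale.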
